A study of Mus musculus with 8 samples.

Results

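The 31 genes described here make up the contractile apparatus of smooth muscle: actin and its binding proteins, the smooth muscle myosin and the enzymes that switch it on and off, the filaments and plaques that anchor the contractile lattice, and a small set of channel, chaperone and transcription genes that go with it. They were taken as a list of gene symbols of known biology, and all 31 were found among the 56980 genes counted. Their read counts were compared across 8 libraries of jejunal mucosa, 4 from FFA2 fl/fl mice and 4 from Adipoq-F2-KO mice. FFA2 fl/fl mice carry loxP sites around the gene of the short-chain fatty acid receptor FFA2 and no Cre, and are called floxed below. Adipoq-F2-KO mice are their littermates with a Cre recombinase driven by the adiponectin promoter, which is active in adipocytes, so both genotypes carry the floxed allele and the receptor gene of muscle and epithelium is not the intended target. All mice were male, were 12 weeks old when moved from chow to a Western diet with 10% fructooligosaccharides, and were sampled after 2 weeks of that diet in thermoneutral housing. The mucosa was collected by scraping the luminal surface, and the labels call it a mixed cell type. The study compared the genotypes to look at how the intestine handles fat, and the question addressed here is how much smooth muscle RNA each scraping held.

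Smooth muscle contracts when calcium, bound to calmodulin, activates myosin light chain kinase, which phosphorylates the regulatory light chain of myosin and lets the myosin heads pull on actin filaments. Myosin phosphatase reverses the step. The filaments are fixed to dense bodies in the cytoplasm and to plaques at the membrane, and the intermediate filament protein desmin links the dense bodies together. In the jejunum smooth muscle forms the circular and longitudinal coats of the outer wall, the thin muscularis mucosae under the mucosa, strands inside the villi, and the walls of blood vessels. Many genes of this set are switched on by serum response factor (SRF), which binds a short element named the CArG box, together with its coactivator myocardin, itself a member of the set (Myocd).

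The CArG box was looked for in the 250 bases before each annotated start of a gene, since it is the element through which SRF acts on these genes. RefSeq promoter sequences of assembly GRCm38.p6 matched 26 of the 31 genes by symbol. The promoters of Tagln, Nexn, Actg2, Myocd and Myh11 were not used here. The strict box has CC, a core of 6 bases that are all A or T, and GG, and since it is its own reverse complement the search covered both strands at once. It was present in 2 of the 26 genes (7.69%), Myl9 and Ldb3, against 439 of all 27025 genes in the table (1.62%). A looser form that allows 1 departure in the core was present in 8 of the 26 genes (30.8%), namely Acta2, Myl9, Synm, Pdlim3, Ldb3, Jph2, Pcp4 and Hspb6, against 2643 of all genes (9.78%). The looser form contains every strict box. Acta2 and Myl9 each carried 2 such boxes, which was true of 0.759% of all genes. The 3 stretches below show them in the smooth muscle actin gene, in the gene of the myosin regulatory light chain and in Ldb3, the member whose counts followed the others least. Boxes are in capitals and each stretch is written 5′ to 3′ on the strand of its gene. In Acta2 (chr19:34255374-34255487, minus strand) the boxes start 84 and 34 bases before the gene's start, in Myl9 (chr2:156775273-156775404, plus strand) 161 and 99 bases before it, and in Ldb3 (chr14:34588682-34588746, minus strand) 35 bases before the nearer of its annotated starts and 109 bases before the other.
Acta2: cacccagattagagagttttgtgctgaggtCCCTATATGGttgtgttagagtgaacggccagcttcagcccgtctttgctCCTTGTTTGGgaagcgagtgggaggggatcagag
Myl9: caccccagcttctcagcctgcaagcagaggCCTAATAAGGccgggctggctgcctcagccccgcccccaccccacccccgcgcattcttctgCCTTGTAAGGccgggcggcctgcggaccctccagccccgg
Ldb3: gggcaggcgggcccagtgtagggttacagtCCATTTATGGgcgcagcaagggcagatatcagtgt
These matches are letters in a window and not measured binding sites, and the search was chosen after the counts had been seen.

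The libraries held between 6007654 and 21712776 counts. Floxed library 3 and Adipoq-F2-KO libraries 3 and 4 held fewer than 10000000 and are called shallow, and the other 5 are called deep. Values below are normalized counts, which are read counts divided by the size factor DESeq2 gave each library, unless another scale is named. A gene was tested where at least 4 libraries had at least 10 counts, and 29 of the 31 genes and 15986 genes in all passed. No pair of libraries matched within sampling noise. Floxed library 3 stood apart in the genes described here, and the main results of the set that rest on it are given with and without it. The deletion is aimed at adipocytes, so the counts of the receptor gene in mucosa are no check of the genotype labels. The labels do not say that each library came from a separate mouse, so the errors and p-values below measure the spread between these libraries.

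Most genes of the set were low or high together in the same libraries, and the size of the swing was large. Myh11, the smooth muscle myosin heavy chain and the usual defining gene of this cell type, was at 64.8, 1535, 9682 and 82.0 in floxed libraries 1 to 4 and at 144, 1385, 753 and 3540 in Adipoq-F2-KO libraries 1 to 4. It was thus 149-fold higher in floxed library 3 than in floxed library 1, within a single genotype. Its span was 54.6-fold without floxed library 3. The genotypes overlapped, with 2841 ± 4613 (SD, n = 4) in floxed and 1456 ± 1479 (SD, n = 4) in Adipoq-F2-KO mice. The floxed mean rested on 1 library, and it was 561 ± 844 (SD, n = 3), below that of Adipoq-F2-KO mice, without floxed library 3. Among the 23 genes with more than 3 counts in every library, the highest library exceeded the lowest by 1.40-fold (Ldb3) to 334-fold (Myl9), and by more than 10-fold in 16 genes. Without floxed library 3, a comparison added after the values were seen, the range was 1.3-fold (Nexn) to 116-fold (Myl9), and 13 genes exceeded 10-fold. Fold spans of single genes of the set are given below over the 8 libraries and then without floxed library 3. Floxed library 3 was the highest of the 8 for 28 of the 29 genes that passed the filter, where 19.6% of all tested genes were highest in that library. The exception was Ldb3. The lowest library was floxed library 1 for 13 genes, floxed library 4 for 12 and Adipoq-F2-KO library 1 for 3. In bulk tissue RNA of this kind, fewer muscle cells and less muscle RNA per cell cannot be told apart.

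**Figure D1:**
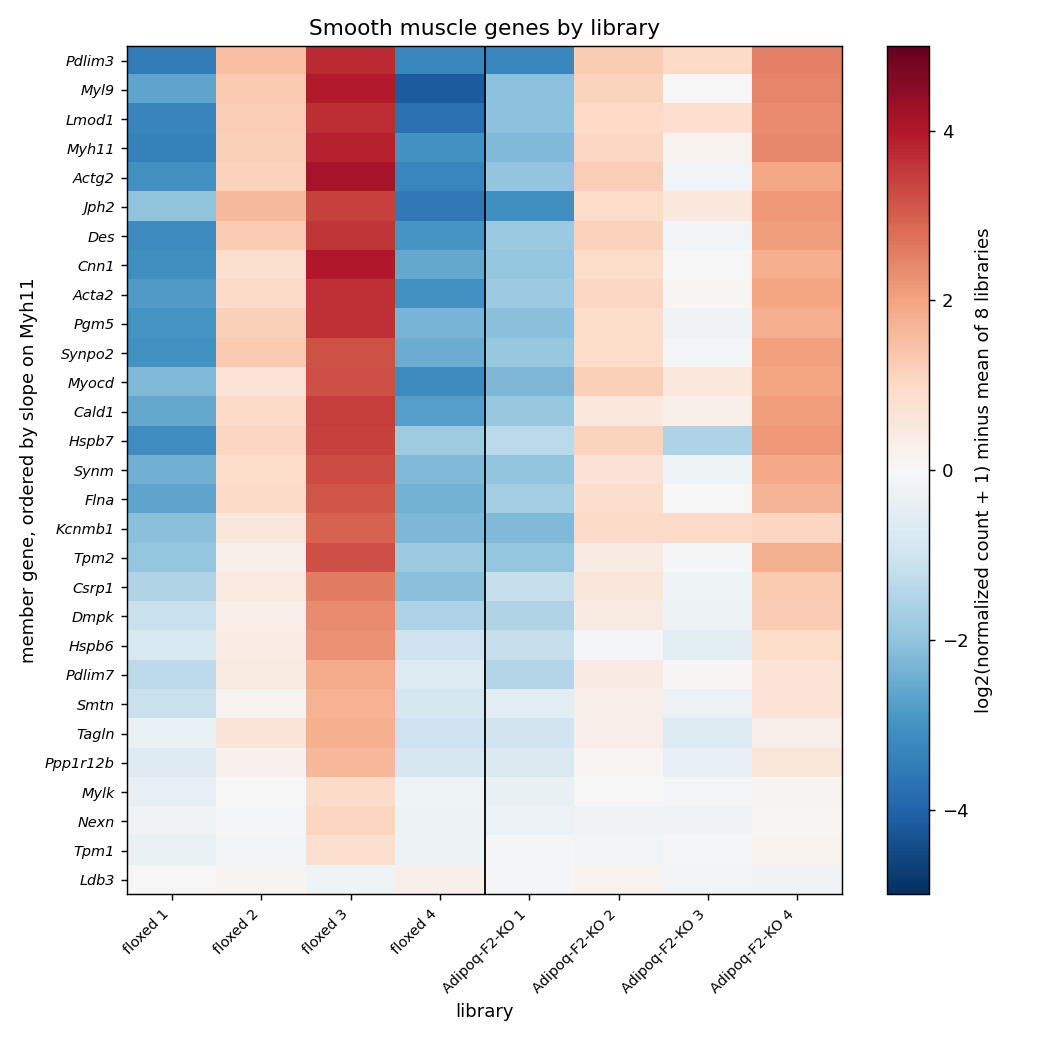
Each row is a gene that passed the filter and each column a library. Colour gives log2(normalized count + 1) minus the gene's mean over the 8 libraries, blue below and red above it, and rows are ordered by how steeply the gene followed Myh11. Floxed library 3 is the reddest column, floxed libraries 1 and 4 and Adipoq-F2-KO library 1 are blue for most genes, and the bottom rows (Mylk, Nexn, Tpm1, Ldb3) are nearly colourless.

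The 9 genes of the thin filament include both actins of smooth muscle. Acta2, the alpha-actin common to vascular and visceral muscle, was at 43.0, 616, 3938 and 37.1 in floxed libraries 1 to 4 and at 88.4, 642, 322 and 1245 in Adipoq-F2-KO libraries 1 to 4. Actg2, the gamma-actin that prevails in gut muscle, was at 10.3, 201, 1608 and 8.51 in floxed and at 22.1, 213, 82.1 and 346 in Adipoq-F2-KO libraries. Both actins were highest in floxed library 3, next in Adipoq-F2-KO library 4, and lowest in floxed libraries 1 and 4. The proteins are nearly identical, and how many reads could be assigned to either gene was not measured, so the split of reads between them is uncertain. Per length of exon, in counts per 1000000 counts of the library (CPM) and per kilobase, Actg2 was at 32.3% to 57.6% of the level of Acta2, lowest in floxed library 4 and highest in floxed library 3. Cnn1, which encodes calponin, an actin-binding protein of differentiated smooth muscle, was at 6.66, 111, 1023 and 10.1 in floxed and at 15.8, 122, 64.1 and 224 in Adipoq-F2-KO libraries, in nearly the same order of high and low libraries. Tpm2 (beta-tropomyosin), Cald1 (caldesmon, which binds actin and tropomyosin) and Lmod1 (leiomodin, which starts new actin filaments) also had their highest value in floxed library 3, at 1386, 1719 and 437.

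Tagln and Tpm1 departed from the other thin filament genes. Tagln encodes transgelin, an actin-binding protein that is among the abundant transcripts of most smooth muscle. It was at 18.2, 36.4, 81.6 and 10.8 in floxed libraries 1 to 4 and at 11.1, 29.1, 14.01 and 28.2 in Adipoq-F2-KO libraries 1 to 4, a 7.53-fold span (3.36-fold without floxed library 3). Its median level was 0.972 CPM per kilobase against 18.3 for Acta2 and 7.81 for Actg2. Tagln shares 67.9% of its exon bases with genes on the opposite strand, Pcsk7 and Gm48529, which had 7126 and 407 counts over the 8 libraries against 235 for Tagln. The strand setting of the counting was not given in the sources used here, and the part of this overlap in the level of Tagln was not tested. Tpm1, alpha-tropomyosin, which many cell types make in different forms, was at 2849, 3218, 6395 and 2976 in floxed and at 3405, 3228, 3308 and 4031 in Adipoq-F2-KO libraries. Floxed library 3 was again the highest, but the span was 2.24-fold (1.41-fold without it). Smtn, which encodes smoothelin, lay between these patterns, from 82.4 in floxed library 1 to 606 in floxed library 3. Its span was 7.36-fold (3.56-fold without floxed library 3), and it shares 16.3% of its exon bases with antisense transcripts.

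Of the 5 genes of the myosin motor and its control, the regulatory light chain gene Myl9 swung most. It went from 5.42 in floxed library 4 to 1811 in floxed library 3, a 334-fold span (116-fold without floxed library 3). Mylk, the kinase that phosphorylates this light chain, has forms in muscle and in non-muscle cells, epithelium included. It was at 3499, 4645, 9193 and 3980 in floxed libraries 1 to 4 and at 3641, 4586, 4413 and 5179 in Adipoq-F2-KO libraries 1 to 4. The order of the libraries resembled that of Myh11, but the span was 2.63-fold (1.48-fold without floxed library 3). Ppp1r12b, a subunit that brings myosin phosphatase to myosin, ranged from 202 in floxed library 4 to 1144 in floxed library 3. Its span was 5.66-fold (2.74-fold without floxed library 3). Mylk4, a related kinase gene, did not pass the filter: it had 2 counts in Adipoq-F2-KO library 2 and 0 in the other 7 libraries, where 0 counts allow up to 3.

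Among the 10 genes of intermediate filaments, cross-linkers and anchors, desmin tracked the myosin closely. Des was at 18.8, 423, 2100 and 21.7 in floxed and at 48.2, 394, 158 and 754 in Adipoq-F2-KO libraries. Its counts amounted to 21.0 to 33.3 per 100 counts of Myh11 in the 8 libraries. The counts of Acta2 amounted to 35.2 to 66.4 per 100 of Myh11, and those of Flna to 71.3 to 194, highest in floxed libraries 1 and 4, where Myh11 was lowest. Flna encodes filamin A, an actin cross-linker of many cell types. Synm (synemin, a partner of desmin), Synpo2 (an actin-bundling protein of the Z-disc and dense body) and Pgm5 (aciculin, a protein of cell-matrix junctions) spanned 52.8-fold, 76.4-fold and 110-fold, and 20.7-fold, 34.95-fold and 30.1-fold without floxed library 3. Csrp1, a LIM protein that binds alpha-actinin, spanned 26.1-fold and Pdlim7, a PDZ and LIM adapter, 10.4-fold, which became 10.6-fold and 4.5-fold without that library. Pdlim3, another adapter of that family, was at 3 counts in floxed library 1 and at a normalized count of 420 in floxed library 3.

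Of the anchor genes, Nexn followed Myh11 weakly and Ldb3 did not follow it. Ldb3 encodes a PDZ and LIM protein best known from the Z-disc of striated muscle. It was at 2012, 2173, 1700 and 2383 in floxed libraries 1 to 4 and at 1856, 2207, 1790 and 1758 in Adipoq-F2-KO libraries 1 to 4. It was lowest in floxed library 3, the library in which the other 28 genes were highest, and highest in floxed library 4. Nexn, which encodes the actin-binding protein nexilin, was at 58.2, 60.6, 140.1 and 55.7 in floxed and at 53.7, 58.3, 58.1 and 69.6 in Adipoq-F2-KO libraries. Floxed library 3 stood above the other 7 there. Nexn shares 7.50% of its exon bases with a transcript on its own strand.

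The last 7 genes serve excitation, calcium handling, protein folding and transcription. Myocd, the coactivator of SRF, was at 2.42, 24.2, 148 and 0.774 in floxed and at 2.37, 35.3, 22.0 and 62.0 in Adipoq-F2-KO libraries. Its order of libraries was close to that of the contractile genes. Kcnmb1, the beta subunit of the large-conductance calcium-activated potassium channel that relaxes smooth muscle, was at 1.82, 16.9, 89.9 and 1.55 in floxed and at 1.58, 22.3, 22.0 and 24.4 in Adipoq-F2-KO libraries. Hspb7, a small heat shock protein gene, was at 0, 17.4, 92.0 and 1.55 in floxed and at 2.37, 18.0, 2.00 and 37.6 in Adipoq-F2-KO libraries. These 3 genes were near or under the limit of 3 counts in floxed libraries 1 and 4 and in Adipoq-F2-KO library 1. Hspb7 was also under it in Adipoq-F2-KO library 3, with 1 count. Hspb6, a small heat shock protein that is phosphorylated when smooth muscle relaxes, was at 39.4, 89.1, 339 and 33.3 in floxed and at 29.2, 66.3, 48.1 and 132 in Adipoq-F2-KO libraries. Its order of libraries was that of the contractile genes in the upper range, and its span was 11.6-fold (4.51-fold without floxed library 3). Jph2, which holds the calcium store near the surface membrane, reached 230.03 in floxed library 3 and had 1 count in floxed library 4, and the protein kinase gene Dmpk spanned 15.01-fold (7.07-fold without floxed library 3). Pcp4, a calmodulin-binding peptide gene, did not pass the filter, with 0, 1.05, 23.0 and 0 in floxed and 0.789, 3.72, 0 and 0 in Adipoq-F2-KO libraries. A raw count over 3 was seen for Pcp4 only in floxed library 3 (11 counts) and Adipoq-F2-KO library 2 (6 counts).

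The co-variation was summarised by Pearson's r over the 8 libraries, on log2(normalized count + 1). These values are a description, since the libraries share a normalization and a few libraries carry most of the range. Over the 406 pairs of genes that passed the filter the median r was 0.952, and 279 pairs (68.7%) exceeded 0.9. The closest pair was Myh11 and Flna, at 0.999. Negative values occurred in 28 pairs, and the lowest was -0.67, for Tpm1 and Ldb3. With Myh11, 23 of the other 28 genes had an r above 0.9, against 2.97% of all tested genes, and the median was 0.98 against -0.04. For Acta2 Pearson's r with Myh11 was 0.997 and Spearman's rho 0.952. It was 0.996 without floxed libraries 1 and 4, which lay farthest from the median of Myh11, and 0.994 within the 5 deep libraries. For Des these values were 0.997, 1.00, 0.994 and 0.999. The 5 genes at or below 0.9 were Mylk (0.864), Tagln (0.849), Tpm1 (0.779), Nexn (0.717) and Ldb3 (-0.50). Without floxed library 3 these values were 0.951, 0.762, 0.740, 0.742 and -0.30, so the place of Mylk among them rested on that library. Within the deep libraries r with Myh11 was 0.921 for Mylk, 0.856 for Tagln, 0.546 for Tpm1, 0.620 for Nexn and 0.217 for Ldb3, so the sign of the Ldb3 value rested on the shallow libraries.

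A high correlation did not mean that a gene changed in proportion to Myh11. The slope of a gene's log2 value on that of Myh11 is 1 where the counts keep a fixed ratio and 0 where the gene does not follow at all. The added count of 1 flattens the slope of the rarest genes. The slope was above 0.75 for 15 of the 28 genes, between 0.5 and 0.75 for 4, and at or below 0.5 for 9. The proportional end held Actg2 at 0.98 ± 0.05 (SE of the line, n = 8), Lmod1 at 1.02 ± 0.06, Myl9 at 1.03 ± 0.08 and Pdlim3 at 1.09 ± 0.08, with Des at 0.93 ± 0.03 and Acta2 at 0.91 ± 0.03. Myocd stood at 0.85 ± 0.07. The flat end held Ldb3 at -0.03 ± 0.02, Tpm1 at 0.11 ± 0.04, Nexn at 0.12 ± 0.05 and Mylk at 0.14 ± 0.03. Between these ends were Ppp1r12b at 0.30 ± 0.05, Tagln at 0.31 ± 0.08, Smtn at 0.34 ± 0.04, Pdlim7 at 0.40 ± 0.05 and Hspb6 at 0.41 ± 0.07. Without floxed library 3 the slope of Tpm1 was 0.05, that of Nexn 0.04 and that of Mylk 0.08, which are lower values than with all 8 libraries.

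**Figure D2:**
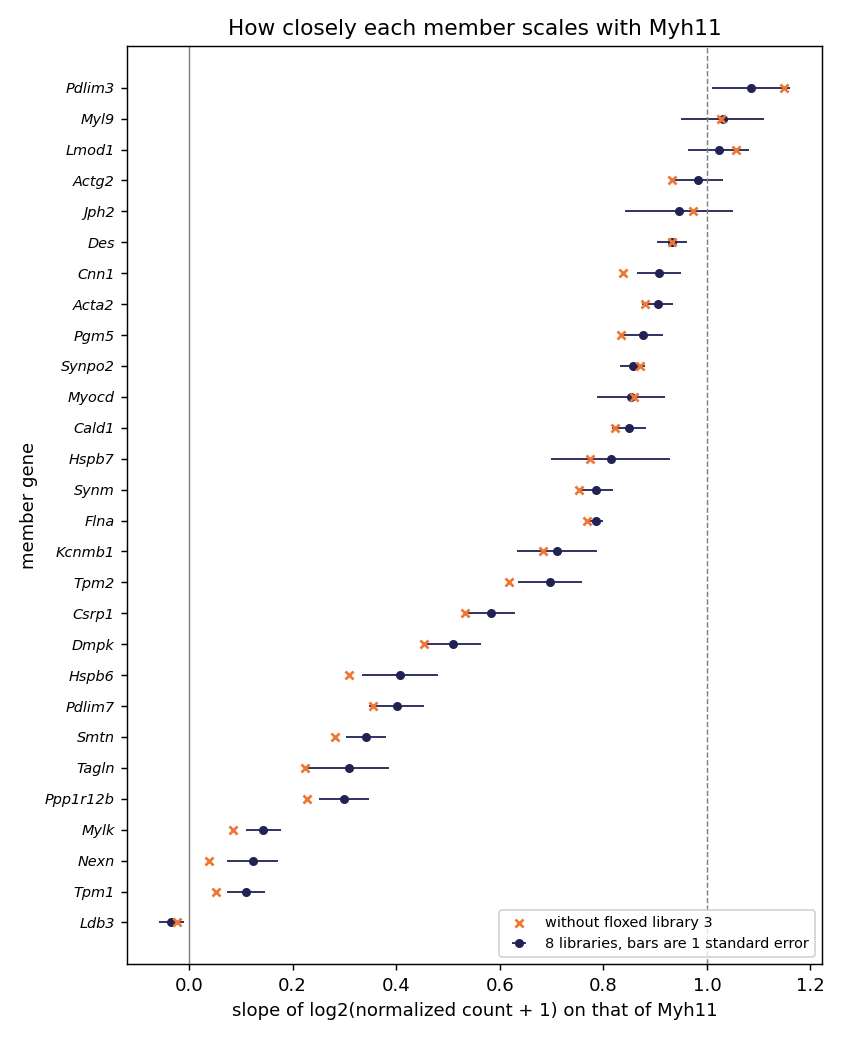
For each gene the point gives the slope, over 8 libraries, of its log2(normalized count + 1) on that of Myh11, with a bar of 1 standard error, and the cross the slope without floxed library 3. The dashed line marks a fixed ratio to Myh11 and the solid line no relation. Genes run from Ldb3 at -0.03 to Pdlim3 at 1.09, and the crosses stay near the points.

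Of the flat genes, 3 were also abundant and made up most of the summed counts of the set in the low libraries. Per length of exon, the median level over the 8 libraries was 43.5 CPM per kilobase for Tpm1, 34.1 for Mylk and 26.9 for Ldb3, against 18.3 for Acta2, 13.4 for Myl9, 12.2 for Myh11 and 0.305 for Myocd. The order was another one in floxed library 3, where Acta2 was at 143, Myl9 at 124 and Myh11 at 101 CPM per kilobase, above Tpm1 at 78.5, Mylk at 64.97 and Ldb3 at 22.2. In summed CPM, Tpm1, Mylk and Ldb3 together held 88.7%, 55.8%, 29.6% and 89.9% of the counts of the 31 genes in floxed libraries 1 to 4, and 86.2%, 57.4%, 69.3% and 42.2% in Adipoq-F2-KO libraries 1 to 4. The other 28 genes summed to 91.9, 694, 3271 and 87.3 CPM in floxed libraries 1 to 4 and to 119, 660, 345 and 1224 CPM in Adipoq-F2-KO libraries 1 to 4. The share of the 3 abundant genes was lowest in the libraries with the most counts of the other 28.

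A muscle score was given to each library as the mean, over the 29 genes that passed the filter, of the log2 values centred on the 8 libraries. The score was -1.99, 0.74, 2.78 and -2.04 in floxed libraries 1 to 4 and -1.58, 0.66, -0.03 and 1.46 in Adipoq-F2-KO libraries 1 to 4. It spanned 4.82 log2 units between floxed libraries 4 and 3, which is 28.2-fold, and 3.5 log2 units without floxed library 3. The mean was -0.13 ± 2.33 (SD, n = 4) in floxed and 0.13 ± 1.29 (SD, n = 4) in Adipoq-F2-KO mice, a difference of 0.25 that was smaller than the spread within either genotype. Depth moved with the score in part: the 3 shallow libraries were at 2.78, -0.03 and 1.46. Within the 5 deep libraries, recomputed on those libraries, the score still spanned 2.78 log2 units and the median r over pairs was 0.948. The part of depth in the score was not tested further.

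The muscle score was set beside markers of the cell types that a scraping of the gut wall could hold. The summed CPM of 15 epithelial genes was led by the brush border enzyme gene Sis and the apolipoprotein gene Apoa1. It lay between 40611 and 41287 in floxed and between 40395 and 43649 in Adipoq-F2-KO libraries, a 1.08-fold span. The defining genes of the labelled mucosa were thus abundant in every library. With the score, the log2 epithelial sum had an r of -0.21 and a Spearman's rho of -0.62 over the 8 libraries. Within the deep libraries r was -0.71. Of the lists for cells that neighbour smooth muscle, the sums of 4 had an r of 0.90 or more with the score, and those of fibroblasts (0.55), blood vessel endothelium (0.65) and mesothelium (0.87) were lower. The fibroblast sum was carried by Fbln1 (r = -0.53), and 7 of the 9 fibroblast genes that passed the filter had an r above 0.9. The 8 pericyte genes, led by Rgs5 and the potassium channel subunit gene Abcc9, summed to 8.28 to 305 CPM in floxed and 9.27 to 181 in Adipoq-F2-KO libraries, and over the 8 libraries the log2 sum had an r of 0.99 with the score. The 3 genes of interstitial cells of Cajal, the pacemakers of gut muscle (Kit, Ano1 and Etv1), summed to 9.57 to 36.3 and 12.1 to 30.1 CPM, with an r of 0.92. Rgs5, with a mean normalized count of 795 against 142 for Abcc9, carried most of the pericyte sum. Of the 6 pericyte genes that passed the filter, 4 had an r above 0.9, Pdgfrb had 0.86 and Notch3 had 0.25. The 12 enteric neuron genes summed to 11.9 to 53.1 and 9.34 to 33.5 CPM, with an r of 0.90, and the 6 enteric glia genes, of which none passed the filter, summed to 1.15 to 4.99 and 1.25 to 3.82 CPM, with an r of 0.96. The pericyte, Cajal cell, neuron and glia lists were all highest in floxed library 3. Of the 6 neuron genes that passed the filter, 2 had an r above 0.9, Prph and Nos1, and the acetylcholine-synthesis gene Chat had -0.21. Of the 13 genes particular to skeletal and cardiac muscle, 8 had at most 3 counts in any library. Of those 8, 3 had 0 counts in every library (Myh1, Myh6 and Mb). The sum of the 13 genes was 7.91 to 17.0 CPM in floxed and 11.8 to 15.9 in Adipoq-F2-KO libraries. This low sum had an r of 0.91 with the score too, and none of its 3 tested genes (Acta1, Mylpf and Ttn) had an r above 0.9.

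**Figure D3:**
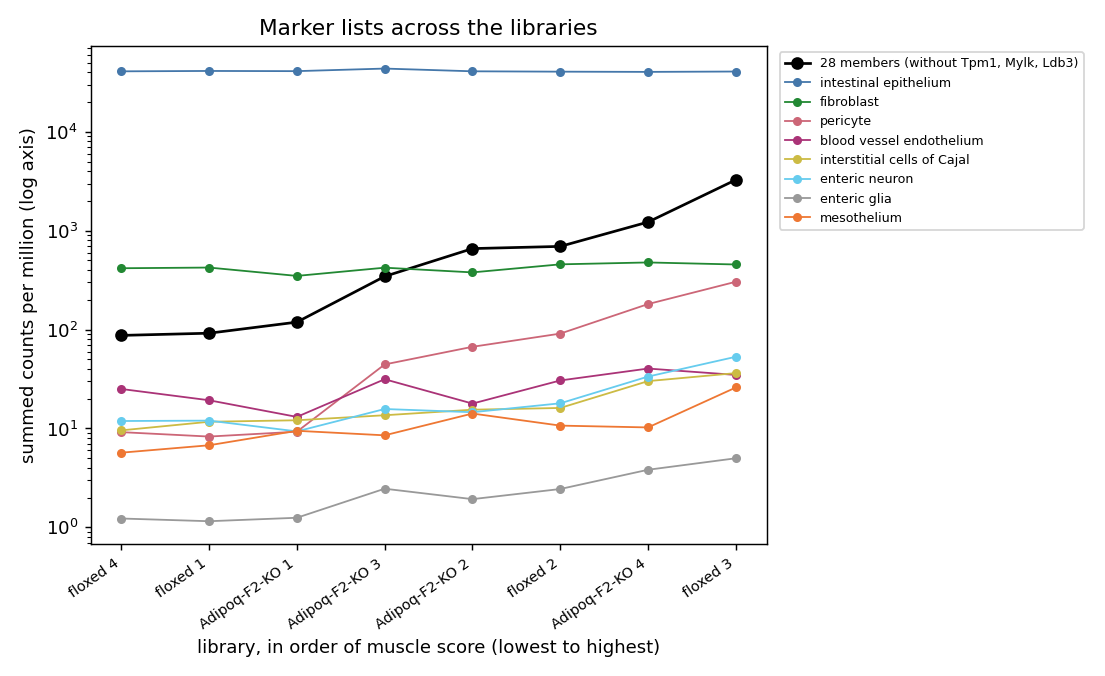
Summed CPM of each marker list (log axis) in the 8 libraries, which are ordered by muscle score from floxed library 4 to floxed library 3. The black line is the sum of 28 genes of the smooth muscle set, without Tpm1, Mylk and Ldb3, and goes from 87.3 to 3271. The epithelial line stays level, and the pericyte line has the steepest climb among the other cell types.

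Genes outside the set had the same pattern. Among 10146 tested genes with a mean normalized count of at least 50, 185 (1.82%) had an r above 0.9 with the muscle score. The 10 with the highest r, from 0.996 to 0.990, were Msrb3, Marveld1, Chrm2, Tns1, Fermt2, Myom1, Klhl23, Cavin1, Nrp2 and Tgfb1i1. Chrm2, the M2 muscarinic receptor on which acetylcholine acts in gut muscle, ranged from 4.24 to 427, and the focal adhesion gene Tns1 from 31.7 to 1903. Of 3 tested contraction receptor genes only Chrm2 had an r above 0.9. The muscarinic receptor gene Chrm3 was at 0.27 and the serotonin receptor gene Htr2b at 0.60. Cavin1, a protein of the caveolae that line the smooth muscle membrane, ranged from 11.6 to 425. Of a further list of 37 genes of smooth muscle filaments, calcium and kinase control, none of them in the set above, 35 passed the filter and 18 had an r above 0.9 with the score. Among these were the calcium channel genes Cacna1c (0.988) and Cacnb2 (0.981) and the caveolin gene Cav1 (0.988). Those that did not follow included the cytoskeletal gene Vcl (0.03) and the calcium pump gene Atp2a2 (-0.11). Of a list of 13 regulator genes, SRF and myocardin-family genes among them, 11 passed, and 4 followed the score with an r above 0.9. These 4 (Foxf1, Hand1, Hand2 and Rbpms) are not themselves SRF or myocardin-family genes. Srf itself had an r of 0.80, and its partners Mrtfa and Mrtfb had 0.33 and -0.56.

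No gene of the set was called different between the genotypes. In the DESeq2 fit across all 15986 tested genes, 0 of 29 had an adjusted p below 0.05, where 6 genes (0.0375%) did so over the whole table. At an unadjusted p below 0.05 the count was again 0 of 29, against 3.03% of all tested genes. It was 0 of 29 by edgeR, against 3.48%, and 0 of 29 by limma-voom, against 4.3%. Normalized counts of the genotypes overlapped for all 29 genes, whereas 2.12% of tested genes had no overlap. The unadjusted DESeq2 p ranged from 0.198 (Tagln) to 0.722 (Myocd), and the adjusted p was 0.9998 for each of the 29 genes.

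**Figure D4:**
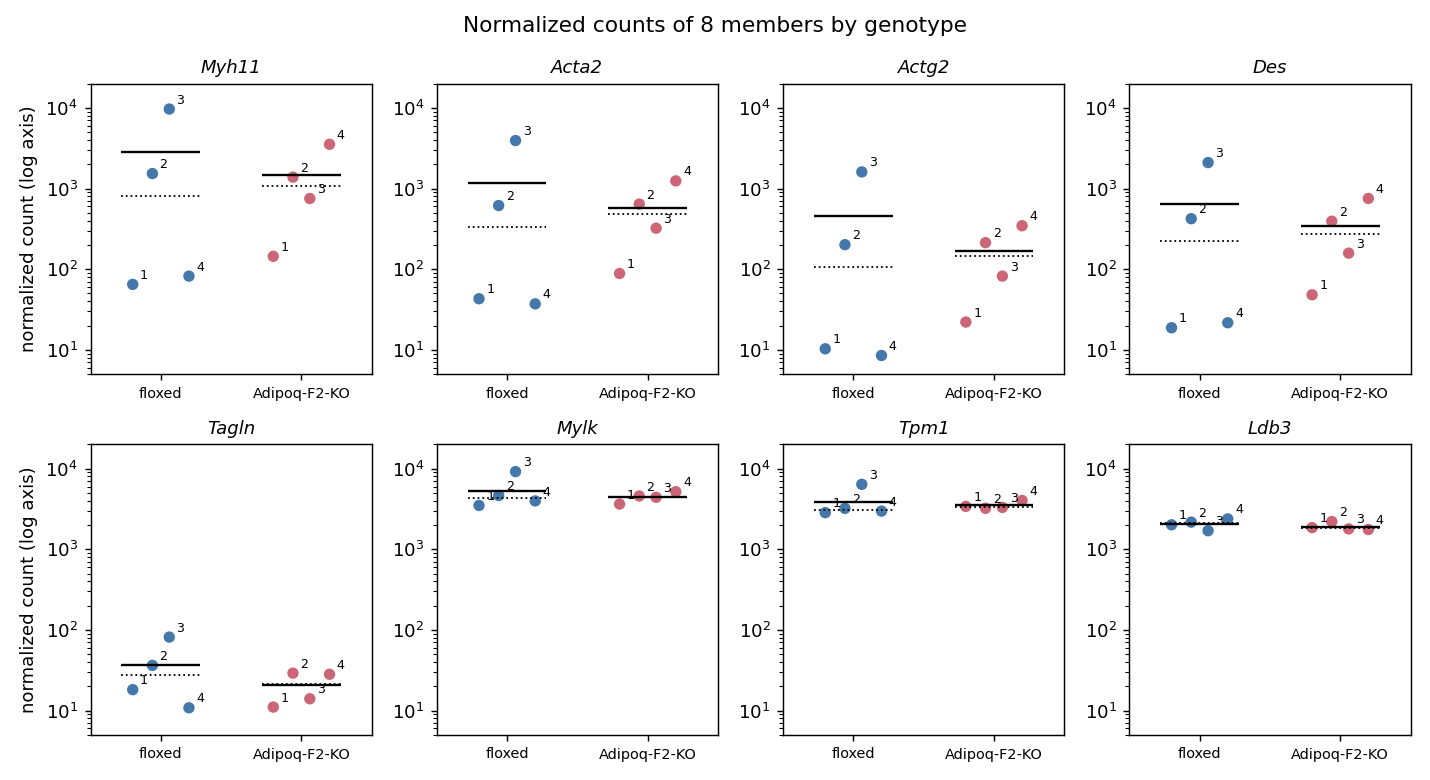
Normalized counts (log axis) of 8 genes in the 4 floxed and 4 Adipoq-F2-KO libraries, with the library number beside each point, a solid line at the mean and a dotted line at the median. The genotypes overlap in every panel, and for Myh11, Acta2, Actg2 and Des the floxed points lie both above and below all Adipoq-F2-KO points.

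The direction of the fold change rested on 1 library. Over the 8 libraries the DESeq2 log2 fold change, Adipoq-F2-KO over floxed, was below 0 for all 29 genes, with a median of -0.78 against -0.01 for all tested genes. Without floxed library 3 it was above 0 for 27 of 29 genes, with a median of 1.07 against 0.01. Myh11 stood at -0.96 (SE 1.49, 95% interval -3.89 to 1.96, DESeq2 adjusted p = 0.9998) with all libraries and at 1.38 (SE 1.39) without floxed library 3. For Actg2, the gene with the largest fold change of the set, the values were -1.46 (SE 1.51, DESeq2 adjusted p = 0.9998) and 1.17 (SE 1.35). Even with all 8 libraries, the difference of the genotype means of log2 values was positive for 20 of the 29 genes and negative for 9, with a median of 0.24. The fold changes of single genes were therefore not independent of each other, since the same libraries were high for nearly all of them. Without floxed library 3, no gene of the set had an unadjusted DESeq2 p below 0.05, where 8.14% of all tested genes did, and the smallest was 0.0593 for Tpm1 (DESeq2 adjusted p = 0.498).

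The genes that followed Myh11 least had the narrowest intervals. The log2 fold change was -0.12 for Ldb3 (SE 0.13, 95% interval -0.38 to 0.14), -0.14 for Tpm1 (SE 0.24, -0.62 to 0.33), -0.26 for Mylk (SE 0.27, -0.79 to 0.27) and -0.35 for Nexn (SE 0.33, -0.99 to 0.29). Without floxed library 3 it was -0.20 for Ldb3 (SE 0.12), 0.21 for Tpm1 (SE 0.11), 0.14 for Mylk (SE 0.15) and 0.02 for Nexn (SE 0.24), so the last 3 of these changed sign. For 19 of the 29 genes the SE exceeded 1, and the median SE of the set was 1.33 against 0.235 for all tested genes. Differences of several fold between genotypes could thus not have been detected for most of the contractile genes. The 3 genes with the smallest unadjusted DESeq2 p-values (0.198, 0.284 and 0.318) were Tagln at -0.78 (SE 0.61), Nexn and Hspb6 at -0.86 (SE 0.86). Without floxed library 3, Tagln was at -0.09 (SE 0.55) and Hspb6 at 0.33 (SE 0.49).

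**Figure D5:**
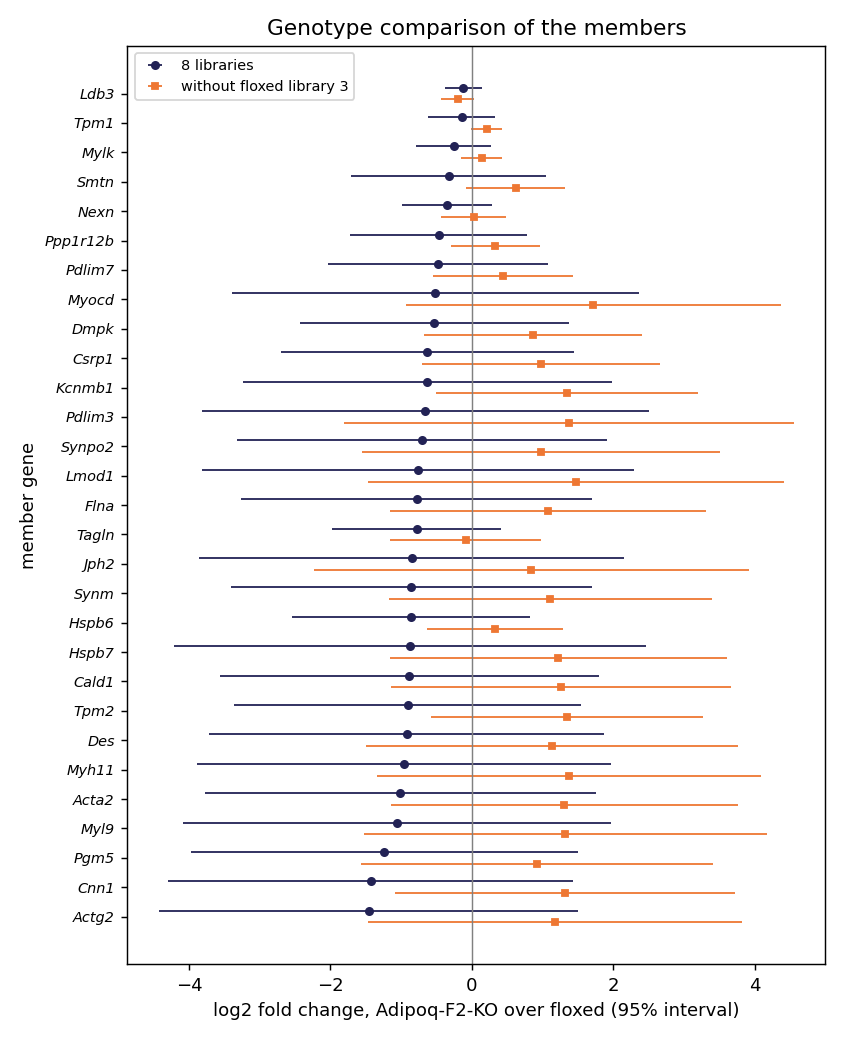
Log2 fold change, Adipoq-F2-KO over floxed, of each gene that passed the filter, with its 95% interval, from DESeq2 on all 8 libraries (circles) and without floxed library 3 (squares). All circles lie below 0 and 27 of 29 squares above it, and every interval of the 8-library fit includes 0.

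The genotype comparison was also fitted with the muscle content of each library as a covariate, taken as the mean of the centred log2 values of the 35 further smooth muscle genes, none of which is in the set. The median log2 fold change of the 29 genes was then 0.01, with 15 above and 14 below 0. The SE of Myh11 was 0.21, with a log2 fold change of 0.29. Unadjusted DESeq2 p-values below 0.05 were found for 2 of 29 genes (0.00837 and 0.0403), against 3.46% of all tested genes. They were those of Hspb6 at -0.58 (SE 0.22) and of the myosin phosphatase subunit gene Ppp1r12b at -0.31 (SE 0.15). Neither passed adjustment over all tested genes, with an adjusted p of 0.916 for Hspb6 and 0.9999 for Ppp1r12b. Hspb6 shares 5.44% of its exon bases with genes on the opposite strand. In the DESeq2 fit of all 8 libraries without the covariate, none of the 35 further smooth muscle genes, 11 tested regulators or 3 tested contraction receptors had an unadjusted p below 0.05, where 3.03% of all tested genes did. Of those 35 genes 10 had a fold change above 0 and 25 below, with a median of -0.19. These directions include floxed library 3 and are not given here without it. Among the 35 genes the unadjusted DESeq2 p-values of Svil and Cap2 were 0.210 and 0.242.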

How the data were processed

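RNA was taken from jejunal mucosal scrapings, and polyadenylated RNA was made into stranded libraries read from one end. The authors trimmed reads with Trimmomatic, aligned them with STAR and counted them per Ensembl gene with featureCounts. The submitters' processing notes name GRCm38 and mm10, and the versions, annotation release and strand setting are not given in the sources used here. The deposited values are raw read counts per gene for each library, neither normalized nor pooled. Total counts were 6007654 to 21712776 per library, and a count of 3 was taken as the limit that 0 counts allow. This limit covers counting error only.

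Groups and sample numbers were taken from the sample titles. Symbols came from the GENCODE annotation of GRCm38, which named 52125 of the 56980 identifiers. Of these, 137 shared a symbol with another identifier. All 176 genes of the lists were matched, Irag1 through the older symbol Mrvi1. The 31 genes, the other lists and the rules for naming genes were chosen with earlier results of these data known. Per-library values were to be given for core contractile genes, for genes with the smallest and largest p, for the 3 lowest correlations with Myh11 and for genes with a mean normalized count under 50.

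The test was DESeq2, the tool the study names, in version 1.42.0 and R 4.3.3, with no term but genotype, run on genes that had 10 or more counts in 4 or more libraries (its own size factors, two-sided Wald tests, Benjamini-Hochberg adjustment over all tested genes). These settings were chosen here. Alternatives were edgeR 4.0.16 (quasi-likelihood test), limma-voom (limma 3.58.1), TMM factors, no filter on low counts, the sample number as a block, the 5 deep libraries, a muscle covariate and leaving out each library in turn. Correlations and slopes used log2(normalized count + 1) and, as descriptions, carry no p. CPM are counts per 1000000 counts of the library. The DESeq2 step was tested on simulated data. Exon overlap was computed from the same annotation, and 10 of the 31 genes share exon bases with another gene.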

Additional observations from a re-analysis of the deposited data

Results flagged for a closer look

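In groups of 4 libraries, a value was marked where its gap to the nearest other value as a share of the group's range, exceeded Dixon's 95% limit for 4 values. Of 58 groups, 2 for each of the 29 genes that passed the filter, 12 were marked. The limit marks about 1 in 20 groups of normally distributed values, and was applied here to counts that were not log-transformed. Such counts are skewed, so the 12 cannot be read against that rate. Since the genes moved together, these are not 12 separate observations. In 11 of them the marked library was floxed library 3. Its normalized counts were 9682 for Myh11, 3938 for Acta2, 1608 for Actg2, 1023 for Cnn1, 6395 for Tpm1, 1386 for Tpm2, 1719 for Cald1, 1811 for Myl9, 140.1 for Nexn, 1131 for Pgm5 and 148 for Myocd, each far above the other floxed libraries. For Tpm1 and Nexn, which varied little otherwise, the other floxed libraries were at 2849 to 3218 and at 55.7 to 60.6. The other marked value was low: Kcnmb1 was at 1.58 in Adipoq-F2-KO library 1, which is 2 counts, against 22.0 to 24.4 in the other Adipoq-F2-KO libraries. Floxed library 3 was also the shallowest of the 8, with 6007654 counts, and the part of depth in these values was not tested.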

How the results depend on the processing

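The number of genes with an adjusted p below 0.05 over the whole table was 6 with DESeq2. It was 2 with edgeR, 1 with limma-voom, 3 without the filter on low counts, 11 with the replicate block, 77 in the 5 deep libraries and 2 to 104 when each library was left out in turn, highest without floxed library 3. The cause was not tested. None of the 29 smooth muscle genes was among them under any of these settings, nor with TMM factors or the muscle covariate. DESeq2 gave no adjusted p, and so no call, for 3 of the 29 genes in the deep libraries, 6 and 1 when Adipoq-F2-KO library 3 or 1 was left out, and 5 when floxed library 3 was. Direction was less firm. All 29 genes were below 0 with DESeq2, edgeR (median log2 fold change -0.71), TMM factors (-0.78) and no filter (-0.77), whereas 21 were above 0 with limma-voom (median 0.59), 24 in the deep libraries (0.34), 19 with the replicate block (0.25) and 27 without floxed library 3 (1.07). Leaving out any other single library left all 29 below 0, with medians of -1.45 to -0.43. The correlation of deviations between same-numbered libraries was 0.54, 0.29, 0.01 and -0.42 for numbers 1 to 4. The labels do not say that same-numbered libraries belong together, and so few values cannot settle whether they do. The median r over pairs of genes stayed between 0.929 and 0.965 under the alternatives run, among them CPM, Spearman's rho, a pseudocount of 10 and leaving out each library. The score's range of 4.82 was 3.5 to 4.82 when each library was left out and 2.78 in the deep libraries. As log2 of summed CPM it was 2.51, and 5.23 without Tpm1, Mylk and Ldb3, an alternative chosen after seeing the data. For 6 genes with 3 counts or fewer in a library, no fold between libraries was given.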

Other observations

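Further lists of non-muscle cells of the wall were set beside the muscle score over the 8 libraries. The 12 fibroblast genes summed to 417 to 457 CPM (counts per 1000000 counts) in floxed and 349 to 478 in Adipoq-F2-KO libraries, with an r of 0.55 with the score. That sum was carried by Fbln1, which had a mean normalized count of 4282 and an r of -0.53. Of the 9 fibroblast genes that passed the filter, 7 had an r above 0.9, among them the collagen genes Col1a2 (0.976) and Col3a1 (0.967) and the matrix protein gene Dpt (0.994). The 8 genes of blood vessel endothelium summed to 19.3 to 34.8 CPM in floxed and 13.1 to 40.4 in Adipoq-F2-KO libraries, with an r of 0.65. In that list Egfl7 had an unadjusted DESeq2 p of 0.00598 with a log2 fold change of -0.74 (DESeq2 adjusted p = 0.9998), and an r of -0.43 with the score. Of the 7 tested endothelial genes 5 had a fold change above 0, among them Kdr (0.93) and Plvap (0.75), and the median was 0.22. The 8 mesothelium genes, markers of the outermost layer of the gut wall, summed to 5.69 to 26.0 and 8.52 to 14.2 CPM, with an r of 0.87.

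At the other end, 31 of 10146 genes had an r below -0.9 with the muscle score. The 5 lowest were Leng8 (-0.97), Gm44651 (-0.96), Echdc1 (-0.96), 2810013P06Rik (-0.95) and Ide (-0.95). Normalized counts ranged from 1734 to 2309 for Leng8 and from 1338 to 1723 for the insulin-degrading enzyme gene Ide. They ranged from 46.0 to 138 for Gm44651, from 46.0 to 72.6 for Echdc1 and from 58.6 to 95.1 for 2810013P06Rik.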
